A study of Rattus norvegicus with 62 samples.

Results

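Livers of rats initiated with thioacetamide or methapyrilene were compared with livers of rats initiated with acetaminophen at the terminal sampling, called 10 weeks, over all genes measured. The members are the samples titled 10w TAA/PB and 10w MP/PB, with 5 animals each, and 10w APAP/PB, with 4 animals, which makes 14 of the 62 samples in all. The 2 carcinogen groups were averaged with equal weight. TAA/PB animals had received thioacetamide at 45 mg/kg, MP/PB animals methapyrilene at 100 mg/kg and APAP/PB animals acetaminophen at 1000 mg/kg, so compound and dose cannot be told apart. The initiator was given for 1 or 2 weeks. It was followed by 2 weeks of withdrawal and then 6 weeks of phenobarbital (PB) at 500 ppm in drinking water, shared by all 3 groups. All animals were male Crj:CD(SD)IGS rats, and a part of the liver had been surgically removed 1 week into promotion. The 10 week samples therefore come from the liver left after that surgery, and the 5 week samples are labelled as taken at the surgery, which would make both weeks samples of the same animals, though no label states that equal numbers name the same animal. MC/PB animals, which got the methylcellulose vehicle and then phenobarbital, and MC/water animals, with neither initiator nor promoter, are given for their levels where a result needs them. So are DEN3/PB and DEN30/PB animals, which had received diethylnitrosamine at 3 or 30 mg/kg before the same phenobarbital. The arrays of all these groups also entered the fit of their week.

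In a liver initiation and promotion assay, an initiator leaves altered hepatocytes behind and a promoter drives their growth into foci. Thioacetamide and methapyrilene are rat liver carcinogens that are usually classed as non-genotoxic, because they give little or no signal in standard mutation tests. Both are converted to reactive metabolites that injure hepatocytes, as acetaminophen is at high dose, but acetaminophen serves as a hepatotoxic compound that is not a carcinogen in this setting. Phenobarbital acts on hepatocytes mainly through the nuclear receptor CAR and induces drug-metabolising enzymes. The comparison therefore asks whether, long after dosing ended and under the same promoter, livers exposed to carcinogens can be told by their RNA from livers exposed to a toxic compound without that property.

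Each array gave MAS5 signals (linear, in arbitrary units) for 31099 probe sets, scaled by the authors so that the trimmed means were nearly equal, between 500.23 and 500.27. On the 14 arrays the median signal lay between 103.9 and 114.5. Signals were compared as log2(signal + 25), and differences below are on that scale unless called signals. Albumin (Alb), the main secreted protein of hepatocytes, had signals of 54426 to 79181 in TAA/PB livers and 49386 to 69002 in MP/PB livers, against 44442 to 61435 in APAP/PB livers, far above the median signal of these arrays. The 62 arrays were also split into 2 sets that the labels do not name, by the sign of the first principal component of the residuals, a rule that makes 2 sets of any data. This component held 11.8% of the within-group variance. Of the 14 arrays, 6 lay in set 1 (2 of each group) and 8 in set 2 (3 TAA/PB, 3 MP/PB and 2 APAP/PB), so values within each set are given beside the main results. The labels number the animals within a group, and p-values measure the spread between these animals.

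Few genes separated the carcinogen livers from the APAP/PB livers at 10 weeks. Of 10546 genes tested with limma over the 31 arrays of that week, 1 gene passed a Benjamini-Hochberg adjusted p of 0.05, which is 0.00948% of those tested. This gene, Gadd45g, was lower in the carcinogen groups than in APAP/PB, and 0 genes were higher. At an unadjusted p of 0.05, 631 genes (5.98%) were counted, 289 higher (2.74%) and 342 lower (3.24%) in the carcinogen groups. The median difference over all genes was -0.01, and the median absolute difference was 0.10. Only 20 genes (0.19%) differed by 2-fold or more, 10 in each direction. In 19 genes (0.18%) the 10 carcinogen livers did not overlap the 4 APAP/PB livers. The precision was good enough to bound most genes: the 95% interval had a median width of 0.28 on either side of the difference, and in 10051 genes (95.3%) it lay wholly within a 2-fold difference in either direction, each interval taken by itself. In bulk liver RNA, fewer cells of a type and less RNA per cell cannot be told apart.

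Gadd45g encodes a small stress-induced protein that binds cell cycle and MAP kinase partners and is known as a growth-restraining gene often silenced in hepatocellular carcinoma. Its single probe set gave signals of 262, 169, 229, 152 and 170.0 in TAA/PB livers and 889.5, 342, 412, 361 and 254 in MP/PB livers, against 1393, 1587, 1361 and 511 in APAP/PB livers. All 5 TAA/PB livers lay under all 4 APAP/PB livers, whereas the MP/PB and APAP/PB ranges overlapped, because the first MP/PB animal exceeded the fourth APAP/PB animal. Mean signals were 196 ± 46.9 in TAA/PB (SD, n = 5), 452 ± 251 in MP/PB (SD, n = 5) and 1213 ± 479 in APAP/PB livers (SD, n = 4). The difference of the carcinogen groups from APAP/PB was -1.89 ± 0.33 (SE), a 3.71-fold lower level with a 95% interval of -2.57 to -1.21 and an adjusted p of 0.0397 in limma. It was -1.76 within array set 1 and -1.88 within array set 2, close to the value over both.

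**Figure D1:**
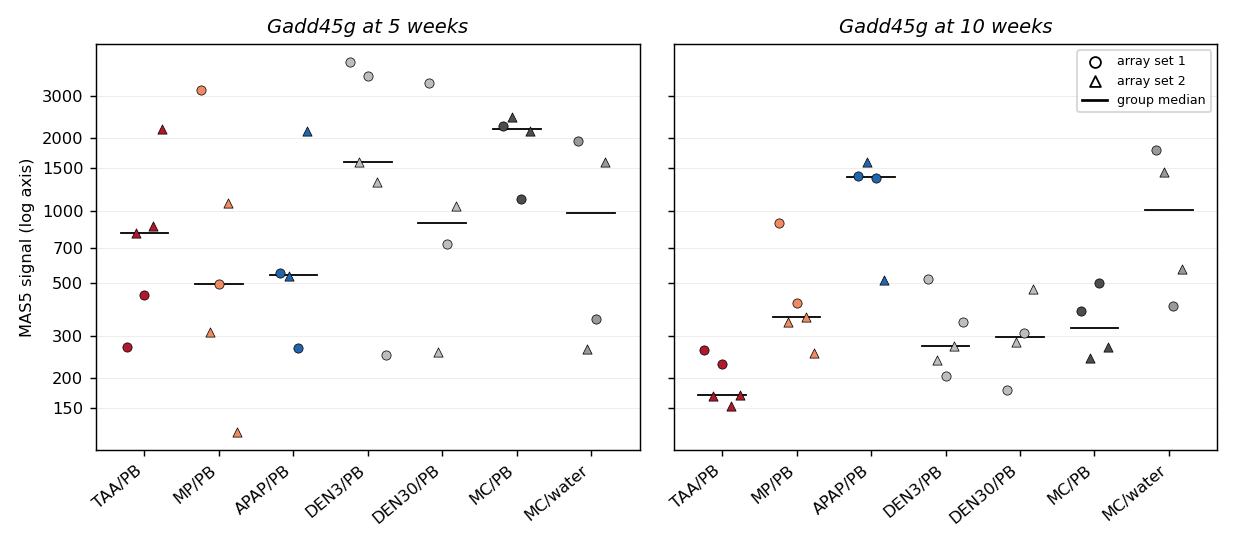
Signals of Gadd45g on a log axis in each animal of the 7 groups at 5 weeks (left) and 10 weeks (right), with circles for array set 1, triangles for array set 2 and bars for group medians. At 10 weeks 3 of the 4 APAP/PB livers lie between 1361 and 1587, above every TAA/PB and MP/PB liver, while at 5 weeks most groups spread over a wide range and overlap.

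The carcinogens were also set against APAP/PB one at a time, with the same APAP/PB animals in both comparisons. TAA/PB livers differed from APAP/PB livers by -2.39 ± 0.38 (SE), with an adjusted p of 0.00647, and this too was the only gene of 10546 that passed (0.00948%). MP/PB livers differed from APAP/PB livers by -1.39 ± 0.38 (SE), which did not pass, and 0 genes passed in that comparison (smallest adjusted p 0.807, with 604 genes, 5.73%, at an unadjusted p of 0.05). TAA/PB minus MP/PB was -1.003, with an adjusted p of 0.884 in limma, so a difference between the carcinogens was not shown for this gene. No gene passed between TAA/PB and MP/PB (0 of 10546, smallest adjusted p 0.228, and 553 genes, 5.24%, at an unadjusted p of 0.05). The call of both carcinogens together was lost when any 1 of 10 animals was left out: TAA/PB animals 2 to 5, MP/PB animals 2, 4 and 5 and APAP/PB animals 1 to 3, with adjusted p from 0.00421 to 0.433 and differences from -2.25 to -1.72 over all 14 omissions. For TAA/PB alone it was lost without APAP/PB animal 1, 2 or 3, at adjusted p of 0.0715, 0.0925 and 0.0564, and within array set 1 (0.984) or set 2 (0.212) alone. The call of both together was also lost with no filter on low signals (0.058), with quantile normalization (0.0722), over all probe sets (0.0711), with only the compared groups in the fit (0.0644) and within either array set alone.

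Of the 6 groups on phenobarbital at 10 weeks, APAP/PB had the highest median Gadd45g signal, 1377, against 170.0 in TAA/PB, 361 in MP/PB and 325 in MC/PB. Signals were 380.3, 243, 499.7 and 269 in MC/PB livers, a range that overlapped MP/PB and lay within that of the carcinogen groups together, and 1786, 1448, 399 and 570.2 in MC/water livers, as high as APAP/PB in 2 of 4 animals. The carcinogen groups differed from MC/PB by -0.22 and APAP/PB differed from MC/PB by 1.67 (adjusted p 0.179 in limma); neither passed, and these comparisons share the carcinogen or the APAP/PB animals with the first one. The groups given diethylnitrosamine, a genotoxic initiator, had 204 to 516 at the lower and 179 to 470.4 at the higher dose, both below 3 of the 4 APAP/PB livers. At 5 weeks the gene spread widely in all 3 groups, with signals of 271, 802, 443, 859 and 2187 in TAA/PB livers and 3173, 312, 494, 1070.3 and 119.6 in MP/PB livers, against 549, 532, 268 and 2150.5 in APAP/PB livers. The 5 week difference was 0.01 ± 0.73 (SE), and the change between the weeks was -1.90 ± 0.84 (SE), which did not pass (adjusted p 1.00 in limma).

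The other members of the family did not pass. Gadd45a, which is induced by p53 after DNA damage, had signals of 646, 701, 865, 738 and 808 in TAA/PB livers and 954, 571, 1113, 1084 and 1601 in MP/PB livers, against 1340.4, 1666, 1242 and 1329.5 in APAP/PB livers. The TAA/PB livers were all below the APAP/PB livers, and 1 of 5 MP/PB livers lay within the APAP/PB range. The difference was -0.66 with an adjusted p of 0.826, and it passed for TAA/PB alone only when the fit was limited to the compared groups (adjusted p 0.0497). Gadd45b, which CAR activators induce in mouse liver, had signals of 328 to 591 in TAA/PB livers and 329 to 633 in MP/PB livers, against 121 to 529.5 in APAP/PB livers, and its difference of 0.53 had the opposite sign. Among 15 tested genes of the p53 target list, 0 passed in either direction and 2 were lower at an unadjusted p of 0.05, where 3.24% of all genes were: Gadd45a and the kinase Plk2 (-0.30). The apoptosis nuclease Aen stood at 0.22, and the list median was 0.03, against -0.01 over all genes. Cdkn1a, the p21 inhibitor of cyclin-dependent kinases, had signals of 488 to 956 in TAA/PB livers and 1059.7 to 1475 in MP/PB livers, against 717 to 911 in APAP/PB livers. Every MP/PB liver exceeded the APAP/PB range, whereas TAA/PB livers overlapped it. The difference of both from APAP/PB was 0.16, with a 95% interval of -0.20 to 0.52, and TAA/PB minus MP/PB was -0.66, which did not pass (adjusted p 0.884 in limma). Mdm2, which marks p53 for degradation, had a difference of -0.004, with an interval of -0.30 to 0.29, and its other probe sets gave -0.33 and -0.11.

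None of the other 23 genes named by the smallest p in each direction passed, so their values describe what led the ranking. The nearest to the threshold, at an adjusted p of 0.276, were Rtn4, Map3k1 and Kifc3, all lower. Rtn4 encodes a reticulon (Nogo) that shapes the tubules of the endoplasmic reticulum, and its signals were 557, 1424, 707, 837 and 970.3 in TAA/PB livers and 919, 783, 991, 649.7 and 966 in MP/PB livers, against 1905, 2409, 948 and 2415 in APAP/PB livers. The third APAP/PB liver, at 948, fell among the carcinogen livers, while the other three exceeded all 10 of them. In MC/PB livers Rtn4 ranged from 903 to 1738. The difference was -1.06 ± 0.23 (SE), with -1.04 at a second probe set. Of 14 omissions of 1 animal, the gene passed in 1, that of this APAP/PB animal 3 (-1.36, adjusted p 0.0221). Map3k1, a kinase at the head of the JNK pathway, had 715, 1184, 818, 892 and 877 in TAA/PB livers and 824, 1126, 1575, 957 and 936 in MP/PB livers, against 1276, 1829, 1355 and 1622 in APAP/PB livers. One MP/PB liver, at 1575, lay inside the APAP/PB range. The gene passed in 1 of 14 omissions, that of this animal (-0.70, adjusted p 0.0381). In MC/PB livers Map3k1 ranged from 701 to 736. Kifc3, a minus-end-directed kinesin that carries vesicles and acts at cell junctions, had 195, 200.03, 299, 155 and 249 in TAA/PB livers and 239, 283, 294, 227 and 224 in MP/PB livers, against 426, 531, 407 and 362 in APAP/PB livers. All 10 carcinogen livers lay below all 4 APAP/PB livers, and the difference was -0.81 ± 0.18 (SE). The MC/PB livers, at 188 to 336, also lay below the APAP/PB livers. With the replicate number as a block, Kifc3 passed beside Gadd45g (-0.86, adjusted p 0.0431), which makes 2 calls in place of 1.

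The remaining genes on the lower side were given by their rank alone. Gas6, a secreted ligand of the TAM receptor kinases that Kupffer and stellate cells produce, had 799, 754, 686, 696 and 764 in TAA/PB livers and 794, 711, 1079.8, 840.0 and 984 in MP/PB livers, against 1255, 1062, 1148 and 1747 in APAP/PB livers and a difference of -0.66. The groups overlapped only through 1 MP/PB liver, but 2 other probe sets of the gene gave 0.13 and -0.30, so its probe sets disagree. Lasp1, an actin-binding adaptor, stood at -0.34 with -0.32 at its second probe set, and Cav2, a caveolin of membrane invaginations, at -0.79. For Cav2 the MC/PB livers had 1048 to 1184, inside the APAP/PB range of 898 to 1544. Ier3, an immediate-early gene linked to survival signalling, stood at -0.64, with 2391 in the first MP/PB animal. Lepr, the leptin receptor, had 36.0 to 76.1 in TAA/PB livers and 84.5 to 330.3 in MP/PB livers, against 115 to 299 in APAP/PB livers, with all 5 TAA/PB livers below the signal minimum of 100. The MC/PB livers had 131 to 180, inside the APAP/PB range. The Lepr difference was -0.98, with -0.54 at a second probe set, and the values within sets 1 and 2 were -0.23 and -1.66. Within set 2, Lepr was the gene that passed for TAA/PB against APAP/PB (-2.05, adjusted p 0.0339 in limma). The Mediator subunit Med18 stood at -0.39 and the HECT-type ubiquitin ligase Herc3 at -0.50.

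**Figure D2:**
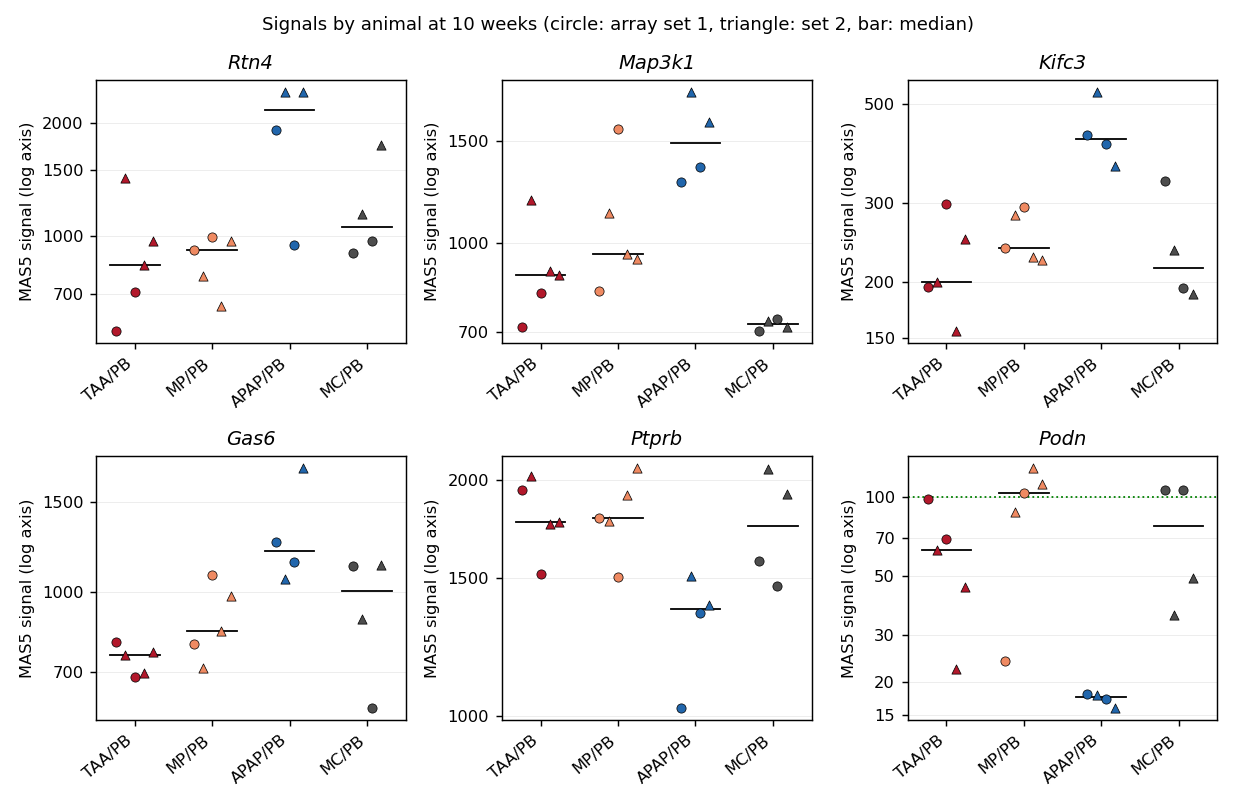
Signals of 6 genes on log axes in each TAA/PB, MP/PB, APAP/PB and MC/PB liver at 10 weeks, with circles for array set 1, triangles for array set 2, bars for group medians and, for Podn, a dotted line at the signal minimum of 100. Kifc3 and Podn show no overlap between the 10 carcinogen livers and the 4 APAP/PB livers, and Podn lies near or below the minimum in all groups.

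On the higher side the smallest p belonged to Ptprb, the vascular endothelial receptor phosphatase VE-PTP, with signals of 1944, 2029, 1519, 1758 and 1769 in TAA/PB livers and 1791, 1773, 1504, 1916 and 2074 in MP/PB livers, against 1026, 1509, 1355 and 1388 in APAP/PB livers. The difference was 0.45 ± 0.11 (SE), with an adjusted p of 0.552, and the groups overlapped narrowly, at 1504 and 1509. A second probe set of the gene gave 0.10. In MC/PB livers Ptprb ranged from 1467 to 2071. Angptl4, a fasting-induced inhibitor of lipoprotein lipase, had 3403, 2426, 1995, 708 and 1294 in TAA/PB livers and 4082, 795, 2137, 3419 and 3320.1 in MP/PB livers, against 1184, 799.9, 489 and 1225 in APAP/PB livers. The difference of 1.20 ± 0.36 (SE) was 1.83 within array set 1 and 0.73 within set 2, and the lowest livers of both carcinogens lay inside the APAP/PB range. In MC/PB livers Angptl4 ranged from 1769 to 3035, above the APAP/PB livers. Depp1, a FOXO target that responds to fasting and steroid hormones, had 1439 to 2733 in TAA/PB livers and 1280.1 to 2314 in MP/PB livers, against 986 to 1289 in APAP/PB livers and a difference of 0.71. The lowest MP/PB liver lay inside the APAP/PB range, whereas the MC/PB livers, at 1408 to 2882, lay above it. Ckb, the brain-type creatine kinase, stood at 0.74, but this was 0.15 within set 1 and 1.30 within set 2, where the fourth APAP/PB liver had 33.8.

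Some of the other higher genes were dim. Podn, a small leucine-rich matrix proteoglycan, had 98.0, 62.8, 69.0, 22.3 and 45.6 in TAA/PB livers and 24.1, 87.7, 103, 128 and 112 in MP/PB livers, against 18.1, 17.9, 17.2 and 15.999 in APAP/PB livers. In MC/PB livers Podn ranged from 35.7 to 106, above the APAP/PB livers. The carcinogen and APAP/PB livers did not overlap, but all 5 TAA/PB and all 4 APAP/PB livers were below the signal minimum, which limits what its difference of 1.14 can carry. Inha, the inhibin alpha subunit (0.74), and the galactosyltransferase B4galt2 (1.09, with 0.10 at a second probe set) were likewise below 100 in all 4 APAP/PB livers. Myo1g, a myosin of blood cells, had 93.0 to 185 in TAA/PB livers and 104 to 211 in MP/PB livers, against 70.8 to 104 in APAP/PB livers and a difference of 0.57. The lysine methyltransferase Vcpkmt, which modifies the ATPase VCP, had 822 to 991 in TAA/PB livers and 877 to 1022 in MP/PB livers, against 690.3 to 801 in APAP/PB livers, without overlap, at 0.29. Def8, linked to lysosome positioning, stood at 0.28, and Mfsd4b2l1 stood at 0.41, with 0.06 at a second probe set, and LOC100910424 at 0.52. These were not dim: their lowest signals, all in APAP/PB livers, were 1234, 444 and 217 in that order. For 13 of these 24 genes the values within the 2 array sets differed by more than 1.5 times. The share of all genes that did so was not counted, and a set held only 2 or 3 animals per group, so the count does not mark out these genes. The part of the array set in their ranking was not tested.

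**Figure D3:**
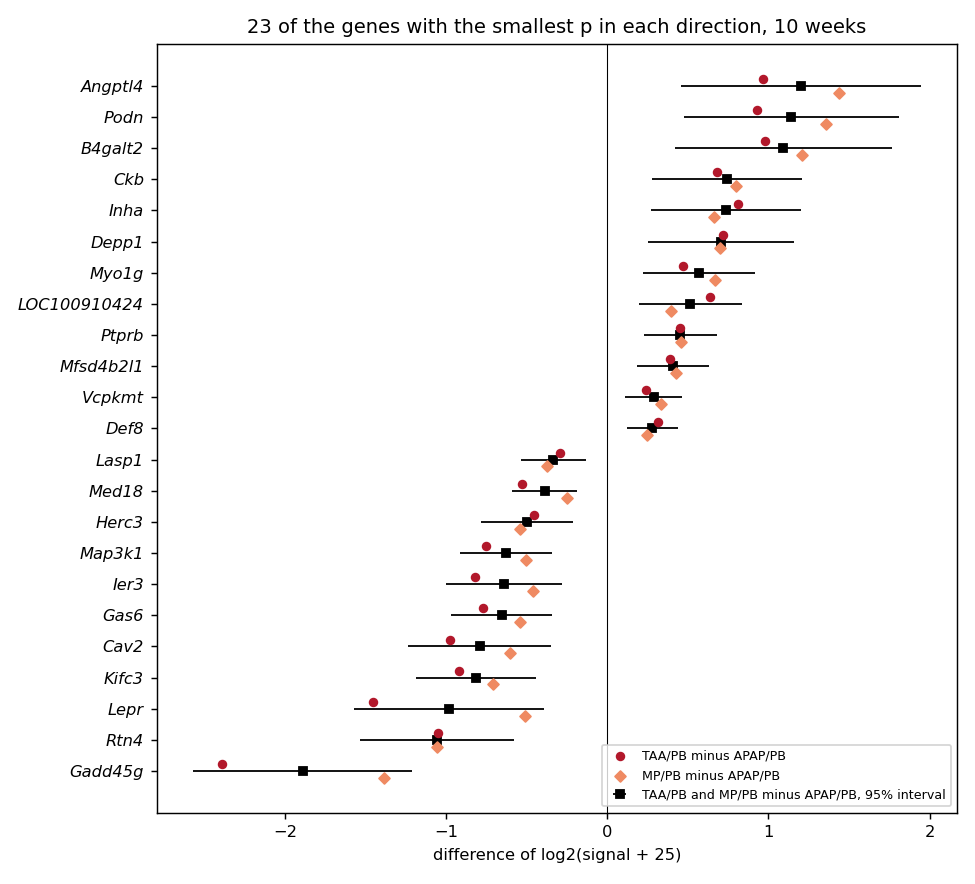
Differences of log2(signal + 25) at 10 weeks for 23 of the 24 genes with the smallest p in each direction. Squares with lines give the mean of both carcinogens minus APAP/PB with its 95% interval, circles TAA/PB minus APAP/PB and diamonds MP/PB minus APAP/PB; of those shown, Gadd45g alone passed, at -1.89.

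Markers of altered foci did not separate the carcinogen livers. Gstp1, the placental glutathione transferase that marks preneoplastic hepatocytes in the rat, had signals of 1131, 1584, 1117, 1101 and 745 in TAA/PB livers and 879, 758, 726, 772 and 1644 in MP/PB livers, against 780.3, 669.9, 1291 and 889 in APAP/PB livers. The groups overlapped throughout, with MP/PB animal 5 the highest, and the difference was 0.18 with a 95% interval of -0.52 to 0.89. Ggt1, the gamma-glutamyltransferase also used to stain foci, stood at -0.14 (interval -0.68 to 0.39), and the fetal protein Afp at 0.22 (-0.08 to 0.52). Aldh1a1, an aldehyde dehydrogenase, stood at -0.05 (-0.38 to 0.29) and the efflux pump Abcc3 at -0.31 (-0.90 to 0.27). Gpx2, a selenium-dependent glutathione peroxidase that NRF2 induces and foci can express, varied most: its signals were 7.65, 597, 183, 862 and 53.9 in TAA/PB livers and 12.5, 49.2, 60.1, 27.2 and 155 in MP/PB livers, against 1346, 1033, 88.5 and 211 in APAP/PB livers. TAA/PB and APAP/PB livers held both dim and bright animals and MP/PB livers stayed at 155 or less. The difference was -1.88 ± 0.78 (SE) and it did not pass (adjusted p 0.826). Of 11 tested members of the focus marker list, 0 passed, and the list median was -0.05.

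Proliferation and drug metabolism gave similar bounds. Mki67, the proliferation antigen, had 54.3 to 297 in TAA/PB livers and 37.4 to 241 in MP/PB livers, against 76.2 to 210.1 in APAP/PB livers, mostly dim, with a difference of -0.36 and a wide interval of -1.18 to 0.46. Cyclin D1 (Ccnd1), which drives entry into the cycle, stood at -0.19 (interval -0.77 to 0.40). Of 34 tested cell cycle genes 0 passed, and the thymidylate synthase Tyms (-0.46) was the only one at an unadjusted p of 0.05. Of the 34 genes, 8 were above 0, where 47.9% of all genes were. The list median of -0.13 was -0.40 within array set 1 and 0.10 within set 2. Cyp2e1, which activates acetaminophen and thioacetamide, had a difference of 0.00 (-0.25 to 0.26), and Cyp1a2, also involved in acetaminophen activation, 0.26 (-0.26 to 0.78). Among 20 tested genes of the list named phenobarbital-inducible 0 passed, with a median of 0.03, and the listed gene Cyp2a2 stood at 0.32. Whether each listed gene responds to phenobarbital was not tested here. Of 16 marker genes tested of 17 listed, 14 had an interval within a 2-fold difference, the exceptions being Gpx2 and Mki67.

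**Figure D4:**
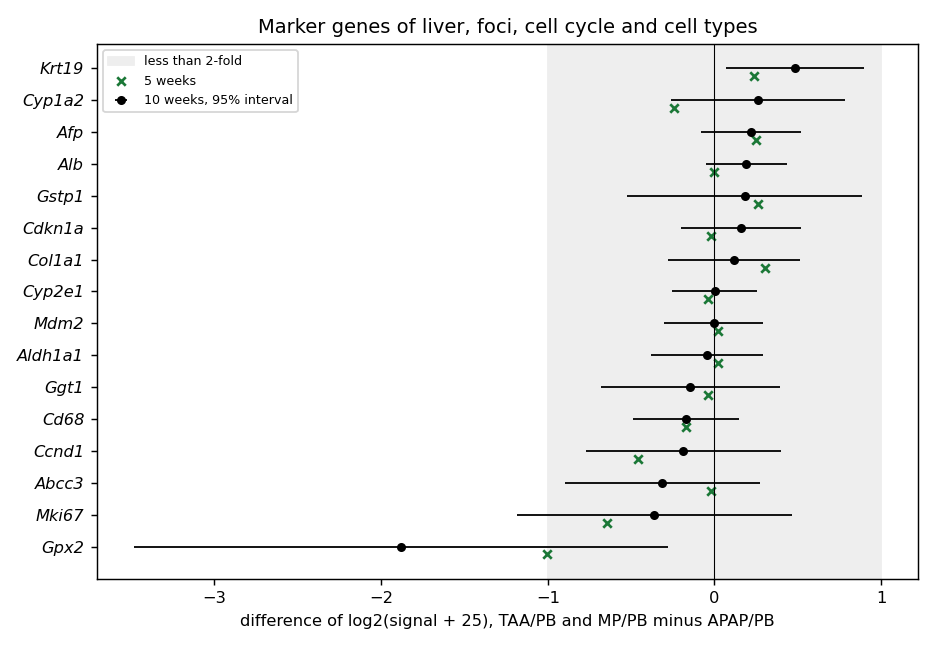
Differences of log2(signal + 25), TAA/PB and MP/PB minus APAP/PB, for 16 marker genes, with points and lines for the 10 week value and its 95% interval and crosses for 5 weeks. The shaded band marks less than 2-fold; 14 of the 16 intervals lie within it, and Gpx2 has the widest interval, from -3.48 to -0.28.

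Across 43 lists covering liver metabolism, stress, growth and cell types, 0 of 657 tested genes passed. List medians ran from -0.20 to 0.21, against -0.01 over all genes, with 27 above and 16 below 0. Of the 20 lists described, 12 had medians of opposite sign within the 2 array sets. The glucocorticoid-responsive list had a median of 0.19, and 5 of its 16 tested members were higher at an unadjusted p of 0.05, where 2.74% of all genes were, and 0 were lower. The median was 0.43 within array set 1 and 0.10 within set 2. Against MC/PB it was -0.15 in the carcinogen groups and -0.30 in APAP/PB, so both lay below the vehicle livers. Igfbp1, an insulin-repressed binding protein for growth factors, had 1870.4, 674, 302, 656 and 1308 in TAA/PB livers and 1030.2, 1450.5, 836, 2142 and 3634 in MP/PB livers, against 229, 549.7, 298 and 637 in APAP/PB livers, a difference of 1.46. Every MP/PB liver exceeded the APAP/PB range, and TAA/PB livers overlapped it. The gluconeogenic enzyme Pck1 stood at 0.39, and the tyrosine aminotransferase Tat at 0.64. Tat signals were 4832 to 7265 in TAA/PB livers and 5071 to 9884 in MP/PB livers, against 2245 to 6433 in APAP/PB livers, and all these lay below the 10337 to 11212 of MC/PB livers. The periportal list, which shares Tat and Pck1, had a median of 0.20 over 20 genes, with 2 higher and 1 lower (the junction protein Cdh1, at -0.25) at an unadjusted p of 0.05. The list of PPARalpha targets had a median of 0.08, with Angptl4 and the fatty acid oxidation enzyme Acadvl (0.12) higher at that level. Against MC/PB the periportal median was 0.04 in the carcinogen groups and -0.11 in APAP/PB. The PPARalpha median was -0.06 and -0.14 in the same order.

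In the stress lists no gene passed. Of 14 tested heat shock chaperones, 0 passed and 4 were higher at an unadjusted p of 0.05, where 2.74% of all genes were, with a list median of 0.14 and 13 of 14 above 0, where 47.9% of all genes were. Against MC/PB the list median was 0.09 in the carcinogen groups and -0.13 in APAP/PB. The co-chaperones Dnajb1 and Dnaja1 stood at 0.35 and 0.22 and the HSP110 member Hsph1 at 0.42. The inducible HSP70 gene Hspa1a had 362, 304, 1429, 162 and 378 in TAA/PB livers and 278, 258, 496, 604 and 5217 in MP/PB livers, against 195, 198, 210.2 and 200.5 in APAP/PB livers. A single MP/PB liver at 5217 and a TAA/PB liver at 1429 carried most of its difference of 1.25, and MC/PB livers spread from 121 to 2215. Of 24 genes of the ER stress and amino acid response 2 were higher at that level, with a median of 0.10. Ddit3, which encodes CHOP, had 354 to 475 in TAA/PB livers and 394 to 521 in MP/PB livers, against 299.9 to 372 in APAP/PB livers and a difference of 0.41, and Herpud1, a factor of ER-associated degradation, stood at 0.43. The glutathione list had a median of 0.07 over 25 genes, with Gstt1 (0.24), Gpx1 (0.23) and Gstm7 (0.37) higher and Gpx2 lower at an unadjusted p of 0.05. Of 23 NRF2 targets 0 were at that level, with a median of -0.02.

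Apoptosis genes had a median of -0.12 over 18 genes, 0.00 within array set 1 and -0.14 within set 2, with 0 passed and Apaf1, the scaffold of the apoptosome, at -0.40. Of the 18 genes, 3 were above 0, where 47.9% of all genes were. Growth factor and signalling genes had a median of 0.11 over 23 genes. Within that list the immediate-early factor Egr1 had 1124, 496, 356, 271 and 417 in TAA/PB livers and 1643, 600.0, 752, 1613 and 792 in MP/PB livers, against 429, 503, 274 and 354 in APAP/PB livers, with every MP/PB liver above the APAP/PB range and 1 TAA/PB liver above it, and a difference of 0.81. Myc, the growth-promoting transcription factor, stood at -0.72, led by 1768 and 1185 in 2 APAP/PB livers. Clock genes had a median of -0.11 over 17 genes, but -0.01 for TAA/PB and -0.01 for MP/PB when each was set against APAP/PB singly. The median was 0.05 within array set 1 and -0.09 within set 2. None passed, and at an unadjusted p of 0.05, 2 were higher and 1 lower, where 2.74% and 3.24% of all genes were. The higher ones were the repressor Cry1 at 0.54 and the output factor Hlf at 0.26, and the lower one was the output factor Dbp at -0.94. Dbp lay near the signal minimum of 100, with median signals of 64.3 in TAA/PB, 78.9 in MP/PB and 149 in APAP/PB livers.

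Markers of other cell types overlapped between the groups. The summed signals of 13 Kupffer and macrophage markers ranged from 19589 to 26514 in TAA/PB and from 20537 to 29494 in MP/PB livers, against 20225 to 27200.0 in APAP/PB livers. Cd68 stood at -0.17 and the lysozyme gene Lyz2 at 0.52, with 1687 to 5407 in TAA/PB livers and 3225 to 4849 in MP/PB livers, against 2191 to 3509 in APAP/PB livers. Stellate and matrix genes, 23 of them, had a median of 0.10, with Col1a1 at 0.12 and the stellate globin Cygb at 0.25, and endothelial markers a median of 0.09 over 11 genes, with the angiopoietin receptor Tek at 0.16. Lymphocyte markers had a median of -0.02 over 9 genes, with the pan-leukocyte gene Ptprc at -0.33. Biliary and progenitor markers had a median of -0.00 over 10 genes, 0.23 within array set 1 and -0.28 within set 2. Among these the keratin Krt19 stood at 0.48 (interval 0.07 to 0.90), which was 1.13 within set 1 and turned to -0.14 within set 2, and the stem cell antigen Prom1 at 0.42, both near the signal minimum. Hepatocyte genes had a median of 0.12 over 23 genes, with 22 above 0, where 47.9% of all genes were, and the receptor gene Asgr2 stood at 0.18. The part of any cell type in the differences above was not tested.

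**Figure D5:**
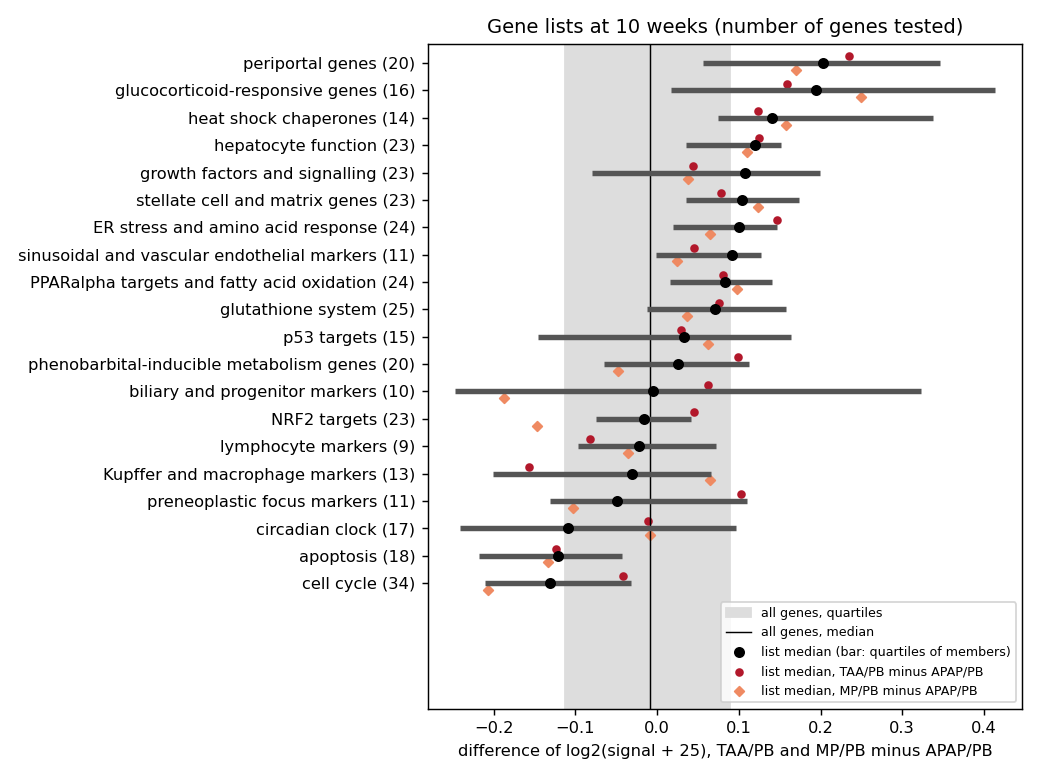
Medians of 20 gene lists at 10 weeks, with bars for the quartiles of the members, circles for TAA/PB minus APAP/PB and diamonds for MP/PB minus APAP/PB; the number of genes tested is in parentheses and the grey band gives the quartiles of all genes. The periportal list is highest, at 0.20, and the cell cycle list lowest, at -0.13.

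Against vehicle livers under the same promoter (MC/PB), few genes differed on either side. The carcinogen groups together differed from MC/PB in 6 of 10546 genes (0.0569%) and APAP/PB in 7 (0.0664%), and these comparisons share the MC/PB animals. The first count was 3 without MC/PB animal 3 or 4, 16 without TAA/PB animal 3 and 12 without MP/PB animal 3, and the second was 3 without MC/PB animal 1 or 2 and 0 without APAP/PB animal 2. Wsb1, a subunit of a ubiquitin ligase, had 766 to 1200.1 in TAA/PB livers and 527 to 1334 in MP/PB livers, against 825 to 1262 in APAP/PB livers and 1886 to 2001 in MC/PB livers. The difference from MC/PB was -1.08 in the carcinogen groups and -0.97 in APAP/PB. Sesn2, a stress-induced regulator of mTORC1, showed -0.66 and -0.83, and Nr1d1, the clock repressor REV-ERBalpha, 1.73 and 2.14, all of which passed. Only the carcinogen comparison passed for Zfp455l1 (-0.83), Myorg (-0.50) and the deubiquitinase gene Otud1 (0.70), where APAP/PB showed -0.46, -0.28 and 0.52. Only the APAP/PB comparison passed for Map3k1 (1.04), Ier3 (1.12), Baiap2l1 (0.79), a gene of membrane curvature, and Tat (-1.39), where the carcinogen groups showed 0.41, 0.48, 0.57 and -0.75. The direct comparison of carcinogen and APAP/PB livers passed for none of these 10 genes, so a difference between them is not shown.

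At 5 weeks the same contrast gave 3 genes of 10491 (0.0286%), all higher in the carcinogen groups, and none of the 3 passed at 10 weeks. Sox4, a transcription factor of progenitor cells and tumours, had 948, 738, 825, 795 and 636 in TAA/PB livers and 888, 1289.8, 1013, 1072 and 1091 in MP/PB livers, against 397, 451, 665 and 594 in APAP/PB livers. All 5 MP/PB livers and 4 of 5 TAA/PB livers exceeded the APAP/PB range, with a difference of 0.79 ± 0.14 (SE) and an adjusted p of 0.0417 in limma. At 10 weeks its difference was -0.26. Mgp, the matrix Gla protein that restrains calcification, had 2183, 1933, 1359.8, 1471 and 1417 in TAA/PB livers and 2839, 1376, 1664, 1686 and 1345 in MP/PB livers, against 826, 587, 1281 and 821 in APAP/PB livers. Its difference was 0.97 ± 0.18 (SE) without overlap, and stood at 0.46 at 10 weeks. Usp2, a deubiquitinase under clock control, had 167, 152, 180.0, 123 and 125 in TAA/PB livers and 254, 111, 221, 126 and 150.2 in MP/PB livers, against 95.01, 48.2, 67.9 and 50.9 in APAP/PB livers. Its difference was 1.03 ± 0.19 (SE), also without overlap, with all 4 APAP/PB livers under the signal minimum, and stood at 0.14 at 10 weeks. The count of 3 fell to 0 without any one of TAA/PB animals 1 to 4, MP/PB animals 3 and 4 or APAP/PB animals 2 and 4, and to 1 without MP/PB animal 1, and it was 0 with no filter on low signals, 2 with quantile normalization, where Mgp was lost, and 5 with the replicate number as a block.

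The change of the difference between the weeks passed in 0 of 10910 genes, with 360 (3.3%) at an unadjusted p of 0.05. With equal numbers of a group in both weeks taken as the same animal, that animal was also used as a block, and then 2 genes passed at an adjusted p of 0.0425 in limma, Apaf1 (-0.71) and Kifc3 (-1.08). For Kifc3 the difference was 0.26 at 5 weeks and -0.81 at 10 weeks. For Apaf1 it was 0.31 and -0.40, with 10 week signals of 156, 239, 226, 278 and 178 in TAA/PB livers and 195, 238, 252, 208 and 285 in MP/PB livers, against 289, 344, 257 and 319.9 in APAP/PB livers. Sox4, Mgp and Usp2 had changes of -1.05, -0.51 and -0.89, none of which passed with or without the block.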

How the data were processed

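Liver RNA of 62 rat samples was measured on Affymetrix arrays. The authors deposited linear MAS5 signal intensities, which the submitters' processing notes credit to MAS5 5.0, with no scaling target named in the sources used. The number of arrays limits the precision. Of 31099 probe sets, 57 were controls, 20826 of the others had 1 gene symbol, 436 several and 9780 none; only the first kind was tested. Probe sets had to reach a signal of 100 on 4 or more arrays in the fit, and a gene was represented by its probe set with the highest mean, which left 10546 genes at 10 weeks. Log2(signal + 25) was fitted with limma 3.58.1 (R 4.3.3; lmFit, contrasts.fit, eBayes with trend, two-sided), over all 31 arrays of a week or all 62 for the change between weeks, with Benjamini-Hochberg adjustment at 0.05 over all genes tested. The steps were tested on simulated data.

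The groups, the members and the 43 gene lists were chosen with earlier results of these data known. Named genes were, by rule, those passed, then those with the smallest p up to 12 in each direction, up to 4 members of smallest p in each of 20 described lists, and 17 fixed markers, of which Cyp3a1 had no usable probe set; 1 of the 24 is not reported here. Genes that passed in the other comparisons were also named; Gadd45b is also a list member, and Aen a member above the unadjusted 0.05. Array sets were read from residuals, with the data in view, so a block on them takes out spread that the same residuals had shown. Within a week the same replicate number names different animals, and same-numbered arrays of the 3 groups always lay in the same array set. Residuals of TAA/PB and APAP/PB arrays of the same number correlated at 0.146 to 0.234 in all 4 pairs, those of MP/PB and APAP/PB at 0.0435 to 0.218 with 2 of 4 above 0.1, so the numbers met the pairing criterion for TAA/PB only. The alternatives dropped the offset, the filter or the choice of 1 probe set per gene, quantile-normalized the arrays, added the replicate number or the array set as a block, fitted the compared groups alone or each array set alone, and left out each animal in turn.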

Additional observations from a re-analysis of the deposited data

Results flagged for a closer look

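Among 243 groups of 4 or 5 signals at 10 weeks (81 named genes in 3 groups), 11 held 1 animal that stood apart from the others by Dixon's test at 95%; chance marks about 1 group in 20. Gadd45g was low in APAP/PB animal 4, at 511 against 1361 to 1587 in the other three, and without this animal the difference was -2.25 with an adjusted p of 0.00421. Hsph1 was high in APAP/PB animal 3, at 2950, against 2131 to 2163.

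MP/PB animal 5 was high in Gstp1 (1644), Cdkn1a (1475), Dnaja1 (10787) and Hspa1a (5217), where the other MP/PB animals reached 879, 1090, 8947 and 604. MP/PB animal 1 was low in Podn, at 24.1, and high in Ier3, at 2391, and Lepr, at 330, where the others reached 108.

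TAA/PB animal 5 was low in Lyz2, at 1687, against 4550 or more in the others, and TAA/PB animal 3 was low in Usp2, at 142, against 269 to 280.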

How the results depend on the processing

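The number of genes passed between the carcinogen groups and APAP/PB at 10 weeks, 1 in the reported analysis, was 0 with quantile normalization, no filter, every probe set, only the compared groups, or either array set alone, 2 with the replicate block, and 0 to 2 with 1 animal left out. For TAA/PB alone the count of 1 became 2 with the replicate block, 2 with only the compared groups and 0 within array set 1, while the 1 gene within set 2 was Lepr and not Gadd45g, and 0 to 1 with 1 animal left out (0 without APAP/PB animals 1, 2 or 3). MP/PB against APAP/PB gave 0 in each alternative run. At 5 weeks the 3 genes became 0 with no filter, 2 with quantile normalization (without Mgp), 5 with the replicate block and 0 to 4 with 1 animal left out. The change between weeks became 2 with the animal as a block (consensus correlation 0.316). With 1 animal left out, the carcinogen groups against MC/PB gave 3 to 16 (16 without TAA/PB animal 3, 12 without MP/PB animal 3), and APAP/PB against MC/PB 0 to 10.

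Gadd45g lost its call in 16 of 23 alternatives. Of the other leading genes, chosen by their small p, Kifc3, Map3k1 and Rtn4 passed in 1 alternative each. Among the fixed markers, none passed, and 6 of them changed sign within an array set or with a changed scaling or block: Cyp2e1 at -0.093 and Mdm2 at 0.017 with quantile normalization, Mdm2 at 0.0037 with the array set block and 0.13 within set 2, Gstp1 at -0.081 and Ggt1 at 0.13 within set 1, and Mki67 at 0.090 and Krt19 at -0.14 within set 2. With 1 animal left out, Aldh1a1 ran from -0.19 to 0.055, Cyp2e1 from -0.084 to 0.077, Mdm2 from -0.097 to 0.16 and Ggt1 from -0.42 to 0.075. Of 440 list medians, 12 moved by more than their spread. The causes of these changes were not tested. In the 3 comparisons with APAP/PB at 10 weeks the replicate block changed only the call of Kifc3. Genes near the signal minimum, such as Podn and Inha, are limited by the arrays' background.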
